A study of Mus musculus with 3 samples.

Results

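The genes described here are the antioxidant and redox enzymes of lung endothelial cells (ECs), 38 genes chosen by symbol: the peroxiredoxins, glutathione peroxidases, superoxide dismutases, catalase, the thioredoxin system, the enzymes that make and recycle glutathione, the NRF2 regulators with some of their targets, and NADPH oxidase subunits. All 38 symbols had a row among the 24346 genes of the table. The study isolated ECs from several mouse organs to ask how the vessels of the kidney differ from those of lung, heart and liver, and the values used here are its adult lung libraries. These are 3 libraries of 1 condition, called S38, S44 and S52, made from wild type C57BL/6J male mice aged 6 to 8 weeks that received no treatment other than an injected anti-VE-cadherin antibody to mark vessels. The cells were freshly isolated by flow sorting as CD31+ and VE-cadherin+, CD45- and Podoplanin-, a gate meant to leave out leukocytes and lymphatic ECs. Poly-A RNA was read in pairs of 51 bp without strand information, and levels are given in FPKM, fragment counts corrected for gene length and for library depth, which allows levels of different genes to be compared.

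Oxygen metabolism and membrane oxidases give superoxide, which superoxide dismutases turn into hydrogen peroxide. Catalase, peroxiredoxins and glutathione peroxidases then reduce the peroxide, the peroxiredoxins with electrons from thioredoxin and the glutathione peroxidases with electrons from glutathione, and NADPH recharges both systems. The transcription factor NRF2 raises many of these genes under oxidative or electrophilic stress, while KEAP1 marks NRF2 for breakdown, and ECs of the lung meet more oxygen than those of most other organs.

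The labels do not say whether the 3 libraries came from separate mice, so the spread between them may be technical, and 3 libraries of 1 condition allow no test between conditions. Depth is not part of the table and was estimated from the spacing of low values as 34100000 fragments for S52, 37600000 for S38 and 38900000 for S44, so a gene of 2000 bp listed at 0 could have held up to 0.0419 to 0.0481 FPKM (3 fragments, counting error only). Endothelial markers were high in every library. Their summed level, over 10 genes, was 5156 to 6070 FPKM, with *Pecam1* at 1168 ± 45.5 FPKM and *Cdh5* at 921 ± 51.5 FPKM (SD, n = 3). S52 stood apart from the other libraries in markers of several other cell types, but not of all. The 7 mural markers, for example, summed to 212 FPKM in S38, 125 in S44 and 200 in S52. The 8 alveolar type 2 markers summed to 4947 FPKM in S38 and 4045 in S44, and to 952 FPKM in S52. For 7 platelet markers the sums were 1838, 1475 and 46.8 FPKM in the same order. The values of S38 and S44 are therefore given beside those of S52 for each of the 38 genes. In bulk RNA, fewer cells of a type and less RNA per cell cannot be told apart.

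RNA of nearly the whole redox set was present in the sorted fraction, in which the part of the other cell types was not tested. Of the 38 genes, 36 had a mean of at least 1 FPKM (94.7%), the level called detected here, against 48.3% of all genes in the table, and the remaining 2 were *Gpx5* and *Gpx6*. Means of 10 FPKM or more were reached by 29 of the 38, against 25.7% of all genes, and means of 100 FPKM or more by 7, against 3.64%. Those 7 were *Txnip*, *Sod1*, *Prdx1*, *Gpx4*, *Gpx3*, *Txn1* and *Prdx2*. In the order of the 38 means, only 4 of the 37 pairs of neighbours had values that did not overlap between libraries, namely *Sod1* above *Prdx1*, *Txn1* above *Prdx2*, *Prdx2* above *Nfe2l2* and *Cybb* above *Gpx6*, so the exact ranks within the order are mostly within the spread.

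Most of the genes differed by less than 2-fold between libraries. The highest library was less than 1.25-fold above the lowest in 12 of the 36 detected genes (33.3%, against 34.9% of all detected genes), and between 1.25-fold and 2-fold above it in 18 (against 52.5% of detected genes), when 1 FPKM was added to each value before the ratio. These shares lay near the background. The remaining 6, *Srxn1*, *Gclm*, *Nqo1*, *Glrx*, *Gpx2* and *Cybb*, differed by more than 2-fold (16.7%), against 12.7% of all detected genes. In each of these 6 genes S38 was the highest library and S52 the lowest. Without S52, 0 of the 36 genes detected in the other 2 libraries differed by more than 2-fold, against 2.14% of all genes detected there.

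**Figure D1:**
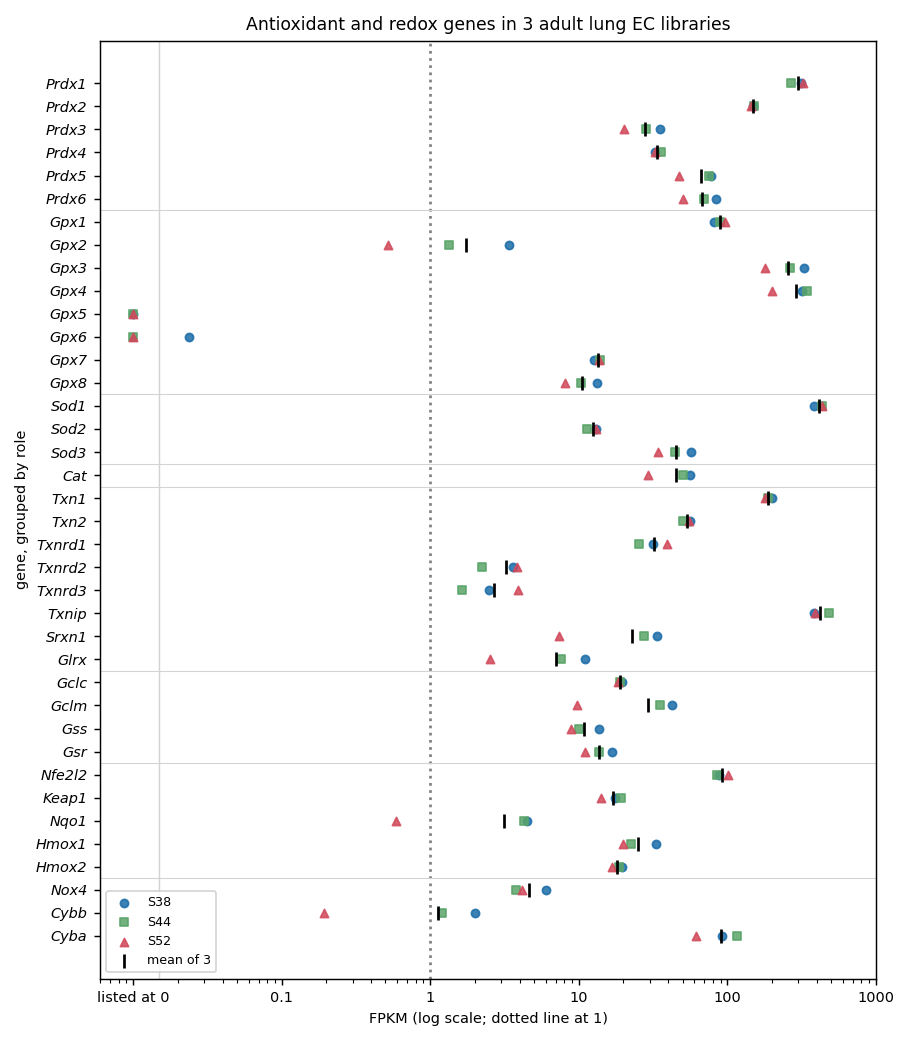
Level of each of the 38 redox genes in FPKM on a log axis, 1 point per library (S38, S44, S52), with the mean of 3 as a black bar for detected genes. Grey lines separate the roles, and values of 0 are drawn at the left edge. Most genes lie above 10 FPKM with their 3 points close together, while *Srxn1*, *Glrx*, *Gclm*, *Nqo1*, *Gpx2* and *Cybb* have the S52 point well to the left.

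The peroxiredoxins, thiol peroxidases that reduce hydrogen peroxide with a reactive cysteine, were all detected, and they summed to 692, 630 and 616 FPKM in S38, S44 and S52. *Prdx1*, an abundant cytosolic member, had 313 FPKM in S38, 268 in S44 and 322 in S52, a mean of 301 ± 28.6 (SD, n = 3) that ranked 348 among all genes. *Prdx2*, the other main cytosolic form, had 150, 151 and 145 FPKM (mean 149 ± 3.65). *Prdx1* took 45.3% of the peroxiredoxin sum in S38, 42.6% in S44 and 52.2% in S52, and *Prdx2* took 21.7, 24.1 and 23.4%, so these genes led the family in every library. *Prdx3*, the mitochondrial form, had 35.1 FPKM in S38, 28.5 in S44 and 20.3 in S52. *Prdx5*, which is found in mitochondria, peroxisomes and the cytosol, had 77.2, 75.8 and 47.2 FPKM. *Prdx6*, which is recharged through glutathione rather than thioredoxin, had 84.0, 69.6 and 50.1 FPKM. S52 was the lowest library for all of these last 3, by 1.63-fold to 1.73-fold against the highest. *Prdx4*, the form of the endoplasmic reticulum, was level at 32.5, 35.9 and 32.8 FPKM. Part of the sequence of some of these genes is shared with other genes: 23.5% of the 51-base windows of the longest *Prdx2* transcript and 10.6% of those of *Prdx1* also occur in other annotated transcripts, among them a pseudogene of *Prdx2*, and *Prdx5* shares 29.6% of its windows with the overlapping *Trmt112*, so their levels are uncertain to that extent.

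*Srxn1*, sulfiredoxin, which repairs peroxiredoxins whose cysteine has been overoxidised, differed more between libraries than any peroxiredoxin. It had 33.6 FPKM in S38, 27.4 in S44 and 7.37 in S52 (mean 22.8 ± 13.7). The S38 value was 4.56 times that of S52 (95% interval 4.20 to 4.97, counting error only), and the S44 value 3.72 times (3.41 to 4.05). The level of *Srxn1* was 0.107 of that of *Prdx1* in S38, and it was 0.102 in S44 and 0.0229 in S52. Its library ratio lay above that of 97.2% of detected genes. S38 and S44 were thus close to each other, and S52 alone was low.

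Glutathione peroxidases use glutathione to reduce peroxides, and 3 of the 8 made up most of the family's RNA. *Gpx4*, which reduces lipid hydroperoxides inside membranes, had 318 FPKM in S38, 345 in S44 and 201 in S52 (mean 288 ± 76.7). *Gpx3*, the secreted plasma form, had 326, 265 and 180 FPKM (mean 257 ± 73.4). *Gpx1*, the widespread cytosolic form, had 80.8, 89.7 and 96.0 FPKM (mean 88.8 ± 7.61). The composition differed between libraries. *Gpx3* took 43.2% of the family sum in S38, 36.5% in S44 and 36.0% in S52, while *Gpx1* took 10.7, 12.4 and 19.2%. *Gpx1* was highest in S52 (in S38 after rescaling to a sum of 1000000) whereas *Gpx3* and *Gpx4* were lowest there under every scaling tried, and the family summed to 754, 725 and 499 FPKM in S38, S44 and S52. Of the 51-base windows of *Gpx4*, 61.5% also occur in other transcripts, above all its pseudogene *Gpx4-ps2*, so its level depends on how shared reads were assigned.

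The other glutathione peroxidases were lower or listed at 0. *Gpx7* and *Gpx8*, which act in the endoplasmic reticulum, were close in level. *Gpx7* had 12.7 FPKM in S38, 13.9 in S44 and 13.7 in S52 (mean 13.4 ± 0.682), and *Gpx8* had 13.2, 10.3 and 8.12 FPKM (mean 10.5 ± 2.55). *Gpx2*, best known from the epithelium of the gut, had 3.41 FPKM in S38, 1.33 in S44 and 0.517 in S52, which correspond to an estimated 119, 47 and 16 fragments. Its S38 value was 6.59 times that of S52 (95% interval 3.86 to 11.8) and its S44 value 2.57 times (1.42 to 4.81). The 3 values therefore differed by more than counting error, although 18.5% of the windows of *Gpx2* are shared with other transcripts. *Gpx5*, a form of the epididymis, was listed at 0 in all 3 libraries, and 3 fragments would have given 0.0509 to 0.0585 FPKM. *Gpx6* was listed at 0.0238 FPKM in S38, the value of about 1 fragment, and at 0 in S44 and S52.

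Superoxide dismutase RNA was mostly *Sod1*. This copper and zinc enzyme of the cytosol had 382 FPKM in S38, 432 in S44 and 433 in S52 (mean 416 ± 29.2) and took 84.6, 88.5 and 90.1% of the family sum. *Sod2*, the manganese enzyme of mitochondria, had 13.0, 11.4 and 13.1 FPKM, so that *Sod1* was 29.4 to 37.8 times as high. *Sod3*, the extracellular enzyme that binds to matrix heparan sulfate, had 56.7 FPKM in S38, 44.6 in S44 and 34.2 in S52. *Sod3* was thus 2.60 to 4.36 times as high as *Sod2*. *Cat*, the peroxisomal catalase, had 56.2, 50.4 and 29.3 FPKM (mean 45.3 ± 14.2), with S52 lowest. *Sod1* shares 22.5% of its windows with other transcripts.

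**Figure D2:**
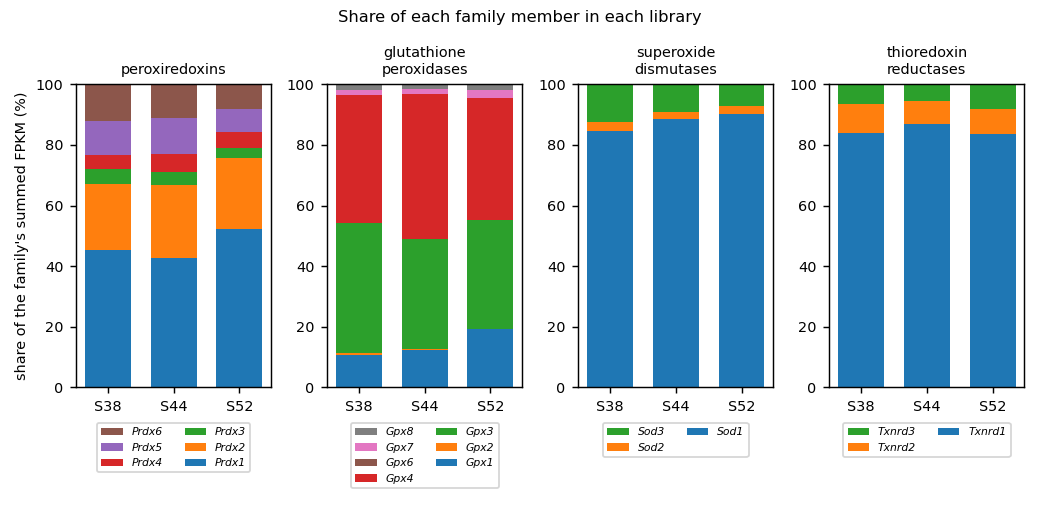
Share of each family member in the summed FPKM of the peroxiredoxins, glutathione peroxidases, superoxide dismutases and thioredoxin reductases, in percent, 1 bar per library; *Gpx5*, at 0 everywhere, is left out. *Sod1* fills 84.6 to 90.1% and *Txnrd1* 83.6 to 86.8% of their families, and the share of *Gpx1* is widest in S52.

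The thioredoxin system was led by the cytosolic genes. *Txn1*, cytosolic thioredoxin, had 200 FPKM in S38, 188 in S44 and 179 in S52 (mean 189 ± 10.6). *Txn2*, its mitochondrial counterpart, had 55.7, 50.4 and 55.5 FPKM, so *Txn1* was 3.22 to 3.73 times as high. *Txnip*, which binds thioredoxin and blocks it, was the highest of the 38 genes by mean, with 385, 485 and 389 FPKM (mean 420 ± 56.8), and overlapped in range with *Sod1*. Its level was 1.92 to 2.58 times that of *Txn1*. Some reads given to *Txnip* may be those of *Gm15441*, an antisense gene that covers 21.4% of its exonic bases, since reads carry no strand.

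The 3 reductases that recharge thioredoxin with NADPH were each highest in S52 as deposited, whereas with each library rescaled to a sum of 1000000 *Txnrd2* was highest in S38. *Txnrd1*, the cytosolic reductase, had 31.8 FPKM in S38, 25.6 in S44 and 39.4 in S52 (mean 32.3 ± 6.93). *Txnrd2*, of mitochondria, had 3.61, 2.24 and 3.85 FPKM, and *Txnrd3*, a form known from testis that also handles glutathione, had 2.48, 1.64 and 3.91 FPKM. S38 and S52 lay close for *Txnrd2*, and S44 was the lowest library for all 3 genes. Without a pseudocount *Txnrd3* joined the genes that differed by more than 2-fold, which then numbered 7 of 36, against 20.1% of detected genes. *Txnrd1* took 83.6 to 86.8% of the reductase sum.

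*Glrx*, glutaredoxin, which removes glutathione from protein cysteines, behaved differently from thioredoxin. It had 11.0 FPKM in S38, 7.60 in S44 and 2.54 in S52 (mean 7.04 ± 4.24). The S38 value was 4.32 times that of S52 (95% interval 3.48 to 5.39) and the S44 value 2.99 times (2.39 to 3.76). The 3 values did not come close to each other, and the lowest was again S52.

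Glutathione synthesis starts with glutamate-cysteine ligase, which is built from a catalytic subunit, *Gclc*, and a modifier subunit, *Gclm*, that makes the catalytic subunit more efficient. *Gclc* was among the steadiest of the 38 genes, with 19.5 FPKM in S38, 18.9 in S44 and 18.4 in S52 (mean 18.9 ± 0.563). *Gclm* had 42.4 FPKM in S38, 35.3 in S44 and 9.72 in S52 (mean 29.1 ± 17.2). The order of the 2 subunits was opposite in S52: *Gclm* was 2.18 times *Gclc* in S38 and 1.87 times in S44, and 0.529 times in S52. About 8692, 7456 and 1795 fragments lay behind the *Gclm* values, and the S38 value was 4.37 times that of S52 (95% interval 4.15 to 4.60). *Gss*, which completes glutathione, had 13.6, 10.1 and 8.90 FPKM, and *Gsr*, which reduces oxidised glutathione with NADPH, had 16.7, 13.6 and 11.0 FPKM. Both had S52 lowest, by 1.52-fold against S38, far less than *Gclm*.

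*Nfe2l2*, the gene of NRF2, was high and steady, with 87.7 FPKM in S38, 85.5 in S44 and 101 in S52 (mean 91.4 ± 8.34). *Keap1*, its inhibitor, had 17.5, 19.1 and 14.2 FPKM, so that *Nfe2l2* was 4.47 to 7.13 times as high as *Keap1*, lowest in S44 and highest in S52. *Nqo1*, a quinone reductase and a classic NRF2 target, had 4.51 FPKM in S38, 4.25 in S44 and 0.590 in S52. These rest on an estimated 239, 230 and 28 fragments. The S38 value of *Nqo1* was 7.64 times that of S52 (95% interval 5.11 to 11.6) and the S44 value 7.20 times (4.82 to 11.0). *Hmox1*, the inducible heme oxygenase, which NRF2 also drives, had 33.2, 22.3 and 19.7 FPKM, with S44 and S52 close to each other and S38 above them. *Hmox2*, the constitutive form, had 19.4, 18.6 and 16.7 FPKM, but 47.6% of its windows are shared with transcripts of the overlapping *Cdip1* on the opposite strand.

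Genes usually counted as NRF2 targets differed from each other in their library pattern, and the activity of NRF2 was not tested. For *Srxn1*, *Gclm* and *Nqo1* the S38 and S44 levels were 3.63 to 7.64 times those of S52. *Hmox1* was also lowest in S52, with the S38 level 1.69 times that of S52. *Gclc* and *Prdx1* were nearly level, and *Txnrd1* was highest in S52 under each scaling tried. NRF2 binds the antioxidant response element, whose core is written TGACNNNGC or TGAGNNNGC. Both forms were searched on both strands, as GCNNNGTCA and GCNNNCTCA on the reverse, in RefSeq promoter windows of 300 bases (250 before and 50 after the start site, GRCm38.p6, the same assembly as mm10). Where NNN reads TCA the letters also contain the AP-1 site TGACTCA or TGAGTCA. A match was present in 8 of 41 windows of the redox genes (19.5%, from 33 genes with a window) and in 27.8% of all 32851 windows, a share below that of all windows. With the first form alone the count was 6 of 41 windows (14.6%) against 12.4% of all. Windows of *Gclc*, *Gsr*, *Hmox1*, *Prdx6* and *Sod3* were not analysed here.

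The 250 bases before the start site are shown for the 4 genes that were over 2-fold lower in S52 than in both other libraries, to let their promoters be compared; they lie at chr2:152105274-152105523 (plus strand, *Srxn1*), chr3:122245307-122245556 (plus strand, *Gclm*), chr8:107403206-107403455 (minus strand, *Nqo1*) and chr13:75839635-75839884 (plus strand, *Glrx*). Capitals mark matches to the core.
*Srxn1* upstream sequence: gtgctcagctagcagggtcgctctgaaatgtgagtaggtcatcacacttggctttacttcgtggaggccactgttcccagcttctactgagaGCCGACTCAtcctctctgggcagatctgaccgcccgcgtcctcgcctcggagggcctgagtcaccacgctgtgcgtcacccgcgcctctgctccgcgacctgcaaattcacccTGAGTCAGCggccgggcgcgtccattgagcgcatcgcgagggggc
*Gclm* upstream sequence: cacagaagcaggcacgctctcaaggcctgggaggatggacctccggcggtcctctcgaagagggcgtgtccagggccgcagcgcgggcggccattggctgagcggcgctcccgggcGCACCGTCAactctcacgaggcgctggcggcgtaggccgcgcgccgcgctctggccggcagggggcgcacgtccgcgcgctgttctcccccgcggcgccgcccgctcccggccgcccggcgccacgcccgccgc
*Nqo1* upstream sequence: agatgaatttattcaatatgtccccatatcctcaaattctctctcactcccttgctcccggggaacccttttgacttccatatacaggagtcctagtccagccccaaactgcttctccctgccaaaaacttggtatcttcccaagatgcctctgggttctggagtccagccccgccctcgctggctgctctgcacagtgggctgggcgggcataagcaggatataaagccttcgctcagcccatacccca
*Glrx* upstream sequence: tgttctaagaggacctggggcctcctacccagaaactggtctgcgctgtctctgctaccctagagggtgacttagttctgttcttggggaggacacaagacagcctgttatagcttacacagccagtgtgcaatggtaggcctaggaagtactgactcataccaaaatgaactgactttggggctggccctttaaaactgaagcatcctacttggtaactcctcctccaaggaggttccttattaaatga
*Srxn1* had 2 matches here, of which the one that begins 45 bases before the start site contains the letters of AP-1, and *Gclm* had 1. A further match in *Srxn1* began 29 bases after the start site. The *Nqo1* and *Glrx* stretches had none, which says only that these letters are not in this window. GC content was 63.2% in *Srxn1*, 78.4% in *Gclm*, 53.2% in *Nqo1* and 48.8% in *Glrx*.

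Matches were also found in genes that were not low in S52, and 3 of them are shown with 10 bases on each side to set beside those above. They lie at chr4:116685456-116685484 (*Prdx1*), chr10:82859104-82859132 (*Txnrd1*) and chr2:75704885-75704913 (*Nfe2l2*, minus strand).
*Prdx1* site: cagggaaagcGCTGAGTCAtcccccgtag
*Txnrd1* site: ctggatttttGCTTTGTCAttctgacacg
*Nfe2l2* site: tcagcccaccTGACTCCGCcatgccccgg
The *Prdx1* and *Txnrd1* matches read on the reverse strand, 133 and 92 bases before the start site of their windows. That of *Nfe2l2* read on the strand of the gene, 240 bases before the start site of its window. The *Txnrd1* window belongs to a start site inside the gene, whose annotated span begins at chr10:82833951. Read on the reverse strand, the *Prdx1* match also contains the letters of AP-1, as does the *Srxn1* match 45 bases before its start site. Within the windows searched, a match to the core was present in genes of both patterns and missing in others of both. Sites outside these windows were not searched, and the part of NRF2 in either pattern was not tested.

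Among the NADPH oxidase genes, the partner subunit *Cyba* exceeded both catalytic subunits. *Cyba*, the p22phox protein that NOX2 and NOX4 need in the membrane, had 91.9 FPKM in S38, 117 in S44 and 61.4 in S52 (mean 90.0 ± 27.7). *Nox4*, an oxidase of ECs and other vessel cells that releases mostly hydrogen peroxide, had 6.04, 3.80 and 4.12 FPKM (mean 4.65 ± 1.21). *Cybb*, the catalytic subunit of NOX2, abundant in phagocytes, had 2.01 FPKM in S38, 1.20 in S44 and 0.192 in S52, an estimated 348, 214 and 30 fragments. *Cybb* was 10.5 times as high in S38 as in S52 (95% interval 7.19 to 15.7), and *Nox4* was 3.01 times *Cybb* in S38, 3.18 times in S44 and 21.5 times in S52. *Nox4* was the higher catalytic subunit in every library. Among blood cell markers beside it, all 6 detected leukocyte markers of 7 were lowest in S52. The macrophage markers *Cd68* and *Csf1r* were not low there alone, with 17.0, 27.4 and 16.7 FPKM and 1.25, 1.85 and 1.30 FPKM in S38, S44 and S52. Other macrophage markers were lowest in S52, all below 1 FPKM in every library. These were *Marco* (0.461, 0.561 and 0 FPKM), *Itgax* (0.857, 0.483 and 0), *Adgre1* (0.741, 0.572 and 0.124) and *Mrc1* (0.877, 0.743 and 0.638).

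Over the 36 detected genes, the median log2 ratio of S52 to S38 was -0.51, against -0.08 over all 11770 detected genes. The median of S52 to S44 was -0.23 against -0.06, and that of S44 to S38 was -0.20 against -0.03. S52 was the lowest library for 23 of the 36 genes (63.9%), against 46.3% of all detected genes, and the highest for 8, against 33.9% of all detected genes. Rescaling the libraries in 3 other ways gave 20 to 25 genes lowest in S52, against 40.5 to 46.6% of detected genes, and 2 to 10 highest in S52, against 20.5 to 38.6%. Over 2-fold below both other libraries were *Srxn1*, *Gclm*, *Nqo1* and *Glrx*, 4 of 36 genes (11.1%), against 4.83% of detected genes. Over 2-fold above both were 0 of the 36 genes, against 0.969%. The share below in S52 was above the background in these libraries, but rests on 4 genes and 1 library and was not tested.

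**Figure D3:**
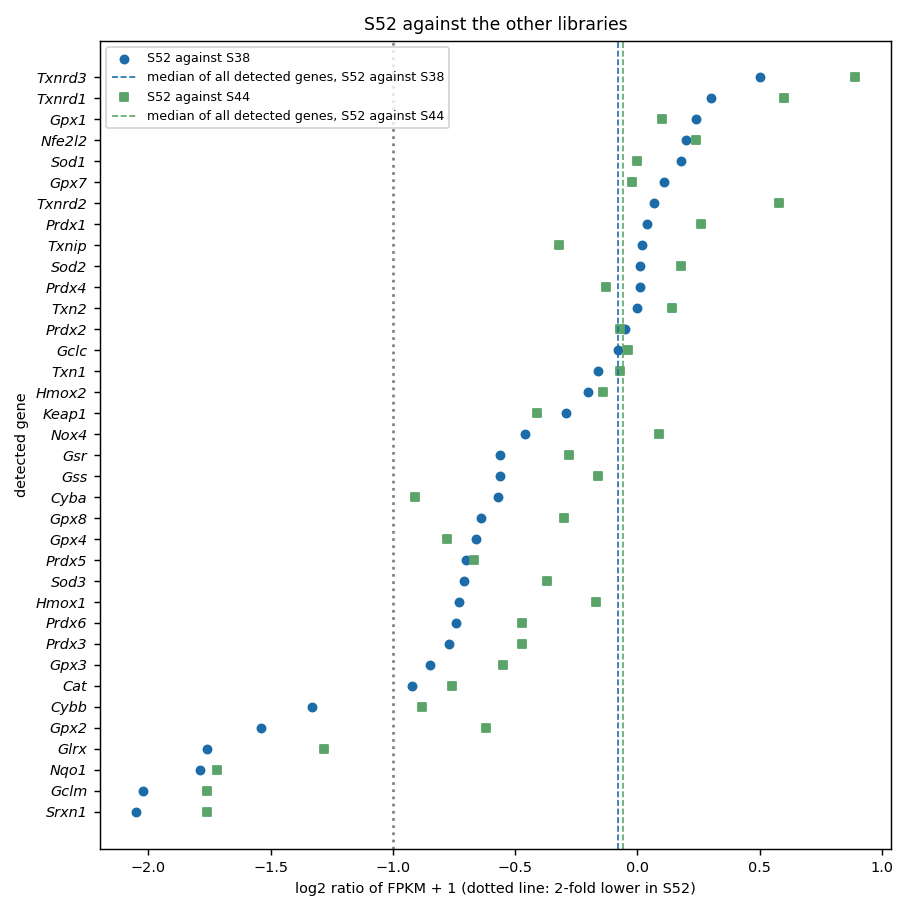
Log2 ratio of FPKM + 1 in S52 against S38 (circles) and against S44 (squares) for the 36 detected redox genes, sorted by the first ratio. Dashed lines give the medians over all detected genes (-0.08 and -0.06) and the dotted line is a 2-fold lower level. *Srxn1*, *Gclm*, *Nqo1* and *Glrx* lie beyond it in both comparisons, and the thioredoxin reductases lie on the right.

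Markers of several other cell types were lower in S52 together with these genes. All 8 alveolar type 2 markers were detected and lowest in S52, 7 of them more than 2-fold below both other libraries, and all 7 platelet markers were more than 2-fold lower. The 6 airway markers summed to 2791, 2329 and 407 FPKM in S38, S44 and S52. For 7 leukocyte markers the sums were 72.3, 50.3 and 9.81 FPKM, with *Nkg7* (2.84, 2.56 and 0 FPKM) and *Cd3e* (0.206, 0.261 and 0 FPKM) at 0 in S52. For 10 macrophage and neutrophil markers they were 55.3, 78.6 and 22.2 FPKM, a difference carried by *S100a8* (13.6, 17.8 and 0.251 FPKM) and *S100a9* (20.5, 29.1 and 2.58 FPKM), while *Cd68* and *Csf1r* in S52 were close to S38. In that list *Mpo* was at 0 in all 3 libraries, *Marco* and *Itgax* were at 0 in S52, and *Elane* was above 0 in S52 alone, at 0.656 FPKM. *Adgre1* and *Mrc1*, below 1 FPKM in every library, were lowest in S52. The erythroid sum, which includes the near-identical *Hba-a1* and *Hba-a2*, was 394, 790 and 94.8 FPKM. Its low value in S52 was carried by *Hbb-bs* (185 FPKM in S38 and 0.00319 in S52) and *Hba-a2* (56.5 and 0.0165 FPKM). *Hba-a1* (147 and 91.0 FPKM) and *Alas2* (4.37 and 3.56 FPKM) differed far less between S38 and S52. How reads were assigned among the globin genes was not tested. Of 10 endothelial markers, 0 differed by more than 2-fold, against 12.7% of all detected genes, but they did not move together. *Erg* (59.2, 43.1 and 84.8 FPKM) and *Emcn* (156, 181 and 267 FPKM) were highest in S52. *Kdr* (380, 360 and 237 FPKM) and *Cldn5* (1486, 1732 and 1029 FPKM) were lowest there. The mural sum, mostly *Acta2* and *Tagln*, was 212, 125 and 200 FPKM, but 0 of 7 mural markers were lowest in S52, 3 differed by more than 2-fold, and their median log2 ratio in S52 was 0.46 against S38 and 0.93 against S44, with *Pdgfrb*, *Rgs5*, *Notch3* and *Cspg4* highest there. The fibroblast sum was 85.1, 66.9 and 50.2 FPKM, and that of 8 dissociation stress genes 2441, 3020 and 2993 FPKM. The part of these cell types in the levels of *Srxn1*, *Gclm*, *Nqo1*, *Glrx*, *Gpx2* and *Cybb* was not tested.

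**Figure D4:**
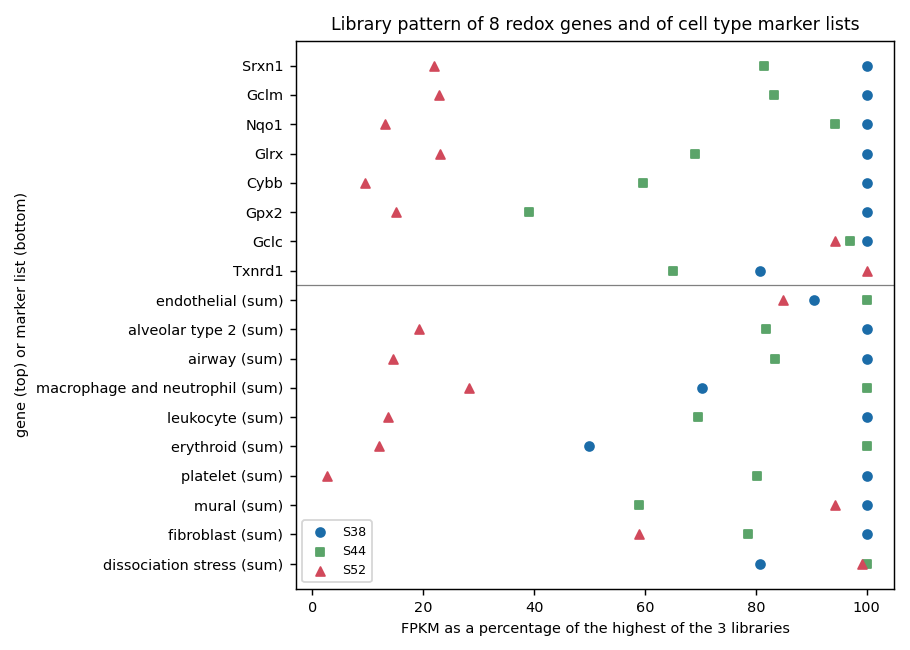
FPKM in each library as a percentage of the highest of the 3, for the 6 redox genes that differed by more than 2-fold, for *Gclc* and *Txnrd1* as further members, and for the summed level of each marker list. The S52 point lies far to the left for the 6 genes and for the alveolar type 2, airway, macrophage and neutrophil, leukocyte, erythroid and platelet sums, and near the right edge for *Gclc*, *Txnrd1* and the mural and dissociation stress sums. The low erythroid sum in S52 was carried by *Hbb-bs* and *Hba-a2*.

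Genes around the redox enzymes were read from 6 lists, to be set against the shares over all genes given above: 48.3% detected, and of the detected genes 12.7% over 2-fold between libraries, 4.83% over 2-fold lower in S52 than in both others, and 46.3% lowest in S52. Of 23 glutathione S-transferases, which couple glutathione to foreign compounds, 18 were detected and 6 differed by more than 2-fold. Of the 18, 10 were lowest in S52. *Gstm1* led at 368 ± 74.2 FPKM, followed by *Gstm2* at 124 ± 12.9 and *Gstp1* at 104 ± 17.5 (SD, n = 3). Their S52 values were 451, 139 and 103 FPKM, so that *Gstm1* and *Gstm2* were highest there (*Gstm2* in S38 after rescaling to a sum of 1000000). *Gsta3* and *Mgst1* were over 2-fold lower in S52 than in both other libraries, with *Mgst1* at 49.4 FPKM in S38, 36.8 in S44 and 17.4 in S52. All 23 other thiol redox proteins were detected, 2 differed by more than 2-fold and 0 were low in S52 alone by that measure. S52 was the lowest library for 13 of the 23. The protein disulfide isomerases *Pdia3*, *P4hb* and *Pdia6* led this list, at 246 ± 46.9, 239 ± 6.38 and 123 ± 23.7 FPKM. *Pdia3* had 286, 257 and 194 FPKM in S38, S44 and S52, *P4hb* 232, 240 and 245, and *Pdia6* 136, 137 and 95.7.

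The genes that supply NADPH were all detected (10 of 10), 0 differed by more than 2-fold and 5 were lowest in S52. *Nadk*, NAD kinase, had 49.9 FPKM in S38, 49.0 in S44 and 61.7 in S52, *Idh2*, the mitochondrial isocitrate dehydrogenase, 45.4, 59.7 and 53.8, and *Pgd*, of the pentose phosphate pathway, 25.4, 25.7 and 21.8. Of 17 NRF2 partners and further targets, 16 were detected and 4 differed by more than 2-fold. *Mafg*, a small Maf protein that pairs with NRF2, *Blvrb*, a biliverdin reductase, and *Aox1*, aldehyde oxidase, were over 2-fold lower in S52 than in both other libraries. *Mafg* had 9.69 FPKM in S38, 10.9 in S44 and 4.21 in S52. The 3 highest genes of the list were highest in S52, under each scaling tried: *Sqstm1*, the p62 protein that binds KEAP1, had 368, 418 and 537 FPKM, *Ephx1*, microsomal epoxide hydrolase, had 181, 199 and 264 FPKM, and *Mafk*, another small Maf, had 108, 112 and 149 FPKM. These 3 differed by 1.38-fold to 1.46-fold between libraries. *Osgin1*, the remaining gene over 2-fold, had 5.48 FPKM in S38, 3.21 in S44 and 1.32 in S52. Over 2-fold higher in S52 than in both others were 0 of the 16 detected genes, against 0.969% of all detected genes. S52 was the lowest library for 8 of the 16.

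The list of NADPH oxidase partners held 11 genes, among them the further oxidases *Nox1*, *Duox1* and *Duox2* and the ferric reductase *Cybrd1*. Of the 11, 5 were detected, 0 of these differed by more than 2-fold and all 5 were lowest in S52. *Cybrd1*, not detected, was highest in S52 (0.198, 0.238 and 0.989 FPKM in S38, S44 and S52). *Rac1*, the GTPase found in most cells, had 396 FPKM in S38, 387 in S44 and 317 in S52, while *Nox1* had 3.88, 2.87 and 1.65 and *Rac2*, the GTPase of blood cells, 2.45, 2.35 and 0.857. *Ncf1*, the p47phox subunit that activates NOX2, had 1.62 FPKM in S38, 1.38 in S44 and 0.435 in S52. All 8 selenoprotein synthesis genes with a row were detected and 0 differed by more than 2-fold, the highest being *Sepp1*, a selenium carrier, with 1472, 1473 and 1240 FPKM in S38, S44 and S52. *Sephs2* had 11.5, 9.92 and 6.80 FPKM and *Secisbp2* 6.98, 7.63 and 7.36 FPKM. Of the 8 genes, 2 were lowest in S52.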

How the data were processed

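Adult lung ECs were measured by bulk RNA-seq in 3 libraries, grouped by the sample labels. The authors deposited 1 table of FPKM values per gene symbol on mm10, which was used as deposited. The submitters' processing notes name bcl2fastq 2.17, FastQC 0.11.5, Trimmomatic 0.36, TopHat2 2.1.0 and Cufflinks 2.2.1, while the study's methods describe STAR and HTSeq counts, so which tools made these values is uncertain, and the gene annotation is not given in the sources used here. FPKM divides by gene length and library size, and a few abundant short RNAs inflate its sums. The columns summed to 1153890, 1603596 and 1419351 FPKM in S38, S44 and S52, of which 1305 short noncoding genes held 59.9, 70.3 and 66.9%. As FPKM values are not counts, no count test was run.

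Means, SDs (n = 3), ranks and shares used FPKM. Ratios used FPKM + 1, a pseudocount of 1 that understates differences of low genes, except where a level is said to be a number of times another, which is a plain FPKM ratio. Detection meant a mean of at least 1 FPKM. Depth was estimated from the steps between low values of 7077 genes with 1 transcript (75.1 to 78.8% of the low values lay within 0.15 of a whole fragment), a method picked with the values in view and checked on simulated data. Intervals (95%, exact binomial) treat fragments as independent. Gene positions and shared 51-base windows came from GENCODE M21 and promoters from RefSeq, both on GRCm38. The motif was picked with the values in view, and its second form after the first had been searched. The members and all lists were chosen with earlier results of these data known. Every member is named, and of each pathway list the 3 genes with the highest mean. Other genes of a list (*Gsta3*, *Mgst1*, *Mafg*, *Blvrb*, *Aox1*, *Osgin1*, *Ncf1*, *Cybrd1*), and the marker genes named singly, were picked with their values in view. *Selenop* (listed also under its older symbol *Sepp1*), *Ly6g* and *Epb42* matched no row, and 0 per-sample columns were left out. Analyses used Python 3.11.15, numpy 2.4.6, pandas 2.3.3, scipy 1.17.1 and matplotlib 3.10.9.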

Additional observations from a re-analysis of the deposited data

How the results depend on the processing

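The count of redox genes that differed by more than 2-fold (6 of 36, against 12.7% of detected genes) rested on S52: leaving out 1 library at a time gave 0 to 6, that is 0 when S52 was dropped (2.14% of detected genes), 4 when S38 was dropped (8.36%) and 6 when S44 was dropped (9.56%). It was 18 at a threshold of 1.5-fold (34.2%), 2 when the mean had to reach 10 FPKM (7.90%), and 10 with each library rescaled to a sum of 1000000 (15.2%). The cause of the last was not tested. That rescaling moved the median log2 ratio of all detected genes by -0.41 for S44 to S38, by -0.25 for S52 to S38 and by 0.15 for S52 to S44. Under it the medians over the redox genes were -0.63 for S44 to S38 and -0.06 for S52 to S44, against -0.44 and 0.09 over detected genes, and 2 rather than 8 redox genes were highest in S52. Rescaling by the median ratio, or to 1 sum without short noncoding genes, left the count at 6, and *Srxn1*, *Gclm*, *Nqo1* and *Glrx* were over 2-fold below both other libraries under all 3 rescalings. The number of detected redox genes was between 29 and 36 in every alternative. Fragment numbers, counting intervals and limits of 0 rest on an estimated depth. The S52 values of *Gpx2*, *Nqo1* and *Cybb* rest on few fragments, an estimated 16, 28 and 30. No paired analysis was possible because there is 1 condition.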
